A study of Mus musculus with 15 samples.

Results

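The promoter ratios described here come from 7 arrays out of the 15 samples of the series, the MeDIP arrays of part 1 of a promoter design that was split over a pair of arrays. Each array set J1, mouse embryonic stem (ES) cells of wild-type genotype, against TKO, ES cells without the DNA methyltransferases Dnmt1, Dnmt3a and Dnmt3b. Both lines grew feeder-free for 2 passages, and 2 ug of their DNA went into methylated DNA immunoprecipitation (MeDIP). Per the labels, J1 DNA carried Cy3 and TKO DNA Cy5 throughout, without a dye swap or input DNA. The study text gives the 7 arrays as replicates from different passages of the cells, and the label of replicates 1 and 3 names passage 37 for J1. Only 1 J1 line and 1 TKO line were compared, so differences among lines of the same genotype are outside every test.

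Part 1 carried 40283 probes on chromosomes 1 to 8, X and Y. They belonged to 8344 gene names, of which 6819 had at least 3 probes and were kept as promoters, with a median of 5 probes each. At that limit 236 promoters had exactly 3 probes, and 415 gene names with 2 probes were left out. The value of a promoter is the mean over its probes of log2 of Cy3 over Cy5, so a value above 0 lies on the labelled J1 side and a value below 0 on the labelled TKO side. The share of probes well above background ran from 88.2% to 99.6% in Cy3 and from 91.2% to 99.3% in Cy5. Replicate 6 had the lowest share in both channels and 465 uneven spots, and its promoter ratios correlated with those of the other arrays at 0.51 to 0.70. The lowest correlation among the other arrays was 0.66 and the highest 0.87. The median SD of a promoter over the 7 arrays was 0.096.

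MeDIP enriches DNA fragments that carry methylated cytosines, most of which lie in CG dinucleotides. In mammals, CpG-rich promoters are mostly unmethylated, while CpG-poor promoters of tissue-specific genes are often methylated in ES cells. Promoters of germ cell genes and of the Rhox homeobox cluster are known to be methylated in wild-type ES cells. Because TKO cells lack the enzymes that methylate DNA, such promoters would lie on the labelled J1 side if the dyes are as labelled. In limma's test at adjusted p under 0.05, 16 of 27 germ cell and 6 of 7 Rhox promoters lay below 0, and none above. Of 1838 CpG-poor promoters 975 lay below and 161 above, and of 1596 CpG-rich promoters 260 below and 604 above. Whether the dye order is as labelled was not tested. Directions are therefore given by the label of the channel and not by the line that carries methylation.

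The RefSeq promoter table (GRCm38.p6) holds a window for 83.0% of the 6404 promoters with 1 gene symbol. The sequences of 5 of them, 250 bases upstream of the RefSeq start with each CG in capitals, show the range of CpG content behind the results. They are Fabp1 (chr6:71199629-71199878, plus strand), Rhox4b (chrX:37432244-37432493, plus strand), Asz1 (chr6:18109062-18109311, minus strand), Nsfl1c (chr2:151493932-151494181, plus strand) and Arhgap35 (chr7:16614994-16615243, minus strand), the last chosen after its values were seen.
Fabp1: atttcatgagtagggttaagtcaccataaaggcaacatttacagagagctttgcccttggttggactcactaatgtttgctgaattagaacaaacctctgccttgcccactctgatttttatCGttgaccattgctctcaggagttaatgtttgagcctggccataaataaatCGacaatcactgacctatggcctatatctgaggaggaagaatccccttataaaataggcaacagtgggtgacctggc
Rhox4b: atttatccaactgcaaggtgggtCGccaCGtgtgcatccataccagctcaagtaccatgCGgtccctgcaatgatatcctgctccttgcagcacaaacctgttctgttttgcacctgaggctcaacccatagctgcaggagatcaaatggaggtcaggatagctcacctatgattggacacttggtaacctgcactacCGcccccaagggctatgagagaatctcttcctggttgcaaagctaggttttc
Asz1: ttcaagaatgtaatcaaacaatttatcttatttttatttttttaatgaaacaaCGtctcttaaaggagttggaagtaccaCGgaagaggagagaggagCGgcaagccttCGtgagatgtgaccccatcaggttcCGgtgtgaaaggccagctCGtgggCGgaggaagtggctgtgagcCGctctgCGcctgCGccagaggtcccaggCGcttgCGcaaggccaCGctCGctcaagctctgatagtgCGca
Nsfl1c: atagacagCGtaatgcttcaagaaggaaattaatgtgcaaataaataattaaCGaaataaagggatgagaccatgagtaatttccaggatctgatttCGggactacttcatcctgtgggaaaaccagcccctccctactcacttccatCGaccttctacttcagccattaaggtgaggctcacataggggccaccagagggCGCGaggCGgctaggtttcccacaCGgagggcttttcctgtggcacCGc
Arhgap35: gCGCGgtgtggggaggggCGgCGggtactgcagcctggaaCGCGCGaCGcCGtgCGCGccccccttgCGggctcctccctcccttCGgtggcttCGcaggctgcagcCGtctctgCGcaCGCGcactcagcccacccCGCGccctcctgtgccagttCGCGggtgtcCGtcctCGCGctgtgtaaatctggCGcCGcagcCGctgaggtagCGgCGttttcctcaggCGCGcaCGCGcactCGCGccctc

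Fabp1 held 2 CG in this window, Rhox4b 4, Nsfl1c 9, Asz1 15 and Arhgap35 36. The median over the 6561 windows of genes on part 1 was 11, and 95.5% held at least 1. At least as many CG as in Arhgap35 were found in 3.17% of the windows, and no more than in Fabp1 in 17.6%. Whether the RefSeq start is the start to which the array's probes were placed was not tested.

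Promoters that passed the size cut lay almost entirely on the labelled TKO side. The olfactory receptor gene Olfr275, the membrane-bending gene Fnbp1l and the reproductive homeobox gene Rhox2a were among the lowest. A call needed an adjusted p under 0.05 in limma's test against 0, with Benjamini-Hochberg adjustment over the 6819 promoters, and a mean at least 0.5 from 0. By this rule 138 promoters (2.02%) were called towards labelled TKO and 3 (0.044%) towards labelled J1. At any size 2154 (31.6%) lay below 0 and 1732 (25.4%) above 0. Of the 138, 137 lay below 0 on all 7 arrays. When background was corrected by normexp instead of using processed signals, 5 calls remained of the 138, and after dropping, array by array, the spots near background in either channel (below, without dim spots) 65 promoters were called, 60 of them among the 138. At the 94 of the 138 that this filter left testable the mean lay below 0 in all 94, with a median of -0.53 against -0.58 over the 138. Probes of the 138 promoters were well above background in both channels on all arrays in 58.8% of cases, against 85.5% of all probes. The median log2 brightness was 8.21 against 9.77 over all promoters, and the part of dim signal in the calls was not tested.

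Olfr275 measured -0.91, -1.52, -0.86, -1.08, -0.87, -0.96 and -0.61 on replicates 1 to 7, a mean of -0.97 ± 0.28 (SD, n = 7; limma adjusted p = 1.8e-05). All 7 arrays lay below -0.6 and replicate 2 was the lowest. Of its 5 probes, 2 were above background on all arrays. Without dim spots Olfr275 could not be tested, and with normexp it averaged -0.17, which is no call.

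The Rhox homeobox genes on the X chromosome, expressed mainly in reproductive tissues and placenta, gave 2 calls. Rhox2a measured -0.76, -1.42, -0.85, -0.68, -0.77, -1.10 and -1.05 on replicates 1 to 7, a mean of -0.95 ± 0.26 (SD, n = 7; limma adjusted p = 1.5e-05). Every array lay below -0.6. Its 4 upstream probes, 2937 to 3758 bp before the annotated start, averaged between -1.57 and -0.88, and the probe 1041 bp inside averaged -0.10. The probe 2937 bp upstream, at -1.23, was not above background on all arrays. Without dim spots the mean was -0.93, and with normexp it was -0.65, still a call in both. Rhox4b, whose sequence is given above, measured -0.48, -0.97, -0.56, -0.53, -0.47, -0.81 and -0.54, a mean of -0.62 ± 0.19. Replicates 2 and 6 were lower than the other 5 arrays. Its probe 331 bp upstream averaged -1.37, and all 5 probes were above background on every array. Rhox genes have near-identical copies in the mouse, so a probe can bind DNA of more than 1 copy. Of the 7 Rhox promoters on part 1, 6 lay below 0 at adjusted p under 0.05 and none above. Their median was -0.24 against -0.0092 over all promoters, of which 31.6% lay below and 25.4% above. The share called towards labelled TKO was 28.6% of the Rhox promoters against 2.02% of all.

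**Figure D1:**
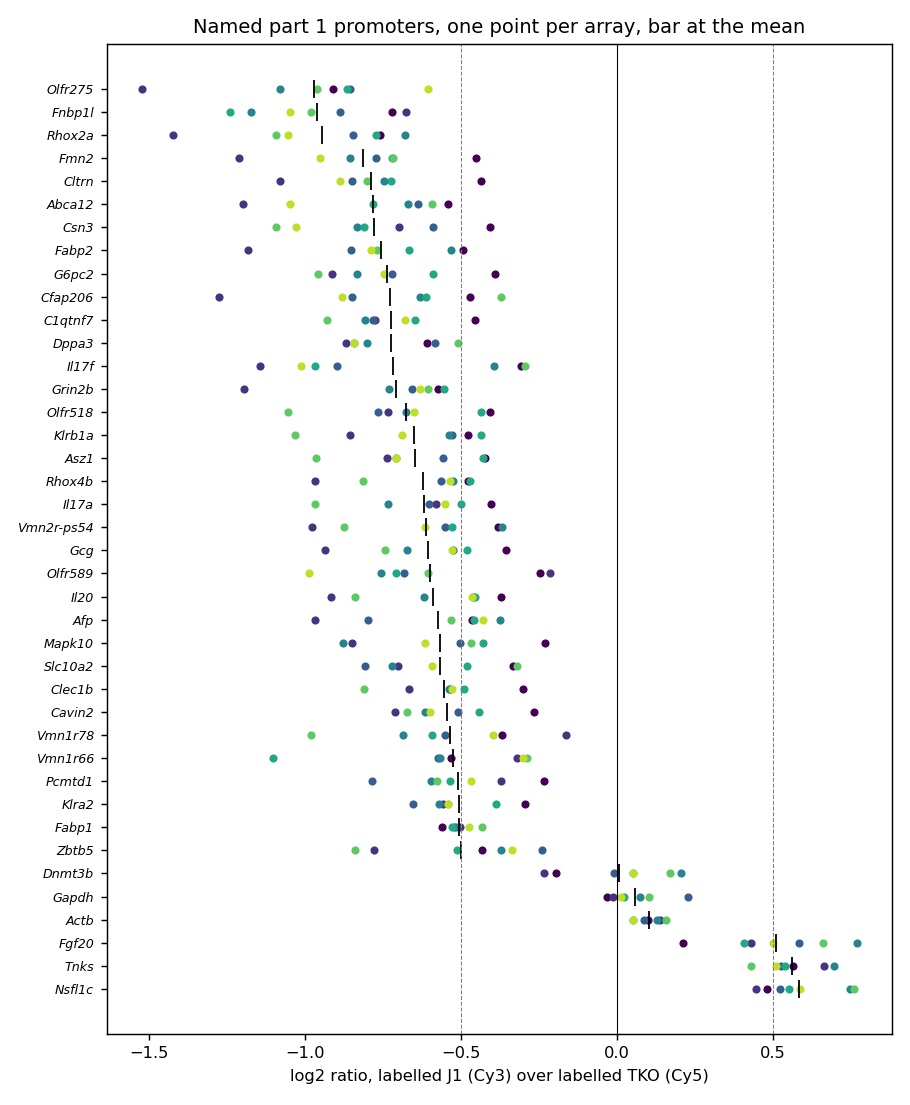
Log2 ratio of labelled J1 over labelled TKO (x axis) at 40 named promoters, 1 point per array in 1 colour per array and a bar at the mean, with dashed lines at the size cut of 0.5. The 3 promoters at the bottom, Fgf20, Tnks and Nsfl1c, lie above 0 on all 7 arrays, and the promoters from Olfr275 to Zbtb5 lie below 0.

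Genes of germ cells and of early development were among the named calls. Asz1, which acts in germ cell piRNA biogenesis, measured -0.42, -0.74, -0.56, -0.71, -0.43, -0.96 and -0.71 on replicates 1 to 7, a mean of -0.65 ± 0.19 (SD, n = 7; limma adjusted p = 2.4e-05). Replicate 6 was the lowest and all arrays lay below -0.4. Upstream of the start its probes averaged between -1.39 and -0.77, and the probe 246 bp inside averaged 0.0053. The probes 766 and 259 bp upstream were not above background on all arrays. Without dim spots the mean was -0.40, and with normexp it was -0.17, so that neither gave a call. It was the only call among 27 germ cell promoters, a share of 3.70% against 2.02% of all promoters. Of the 27, 16 lay below 0 at adjusted p under 0.05 and none above, with a median of -0.12. Over all promoters 31.6% lay below and 25.4% above. Dppa3, a gene of ES and germ cells, measured -0.61, -0.87, -0.58, -0.80, -0.84, -0.51 and -0.84, a mean of -0.72 ± 0.15. Of its 5 probes, 2 were above background on all arrays. These 2 averaged -0.16 at 136 bp upstream and -0.73 at 144 bp inside. With normexp the mean of Dppa3 was -0.14, which is no call.

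**Figure D2:**
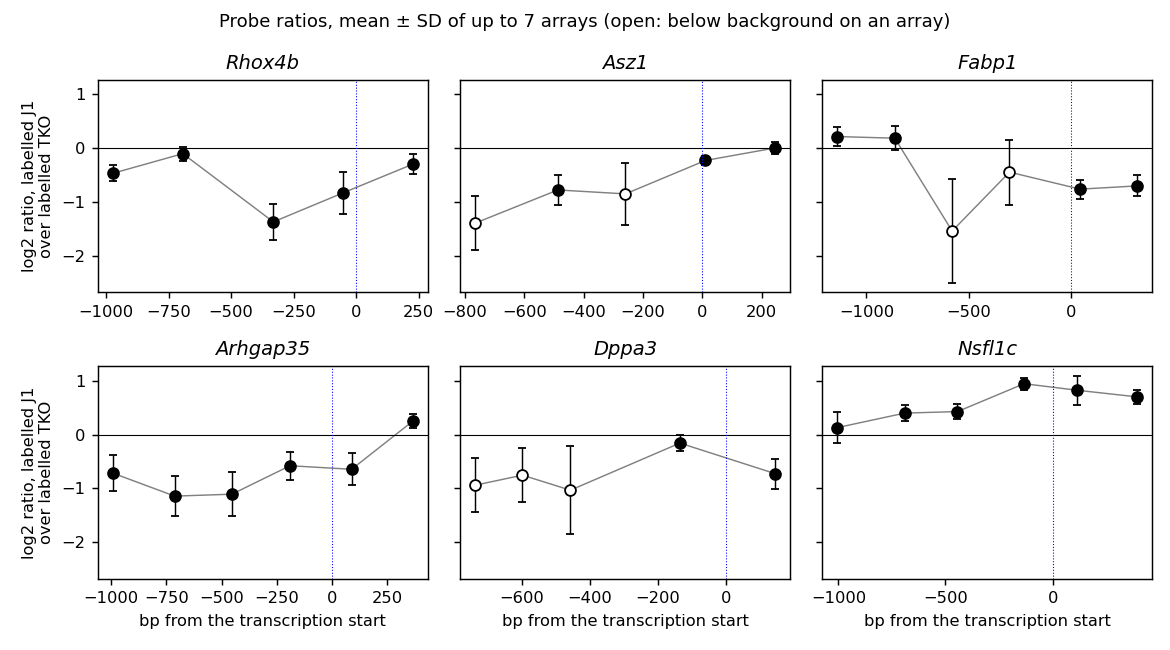
Probe ratios (y axis, log2 of labelled J1 over labelled TKO, mean ± SD of up to 7 arrays) against distance from the annotated transcription start in bp (x axis) at 6 promoters. Filled points are probes above background in both channels on all arrays and open points are not, and Nsfl1c lies above 0 at every probe while the lowest probes of Rhox4b, Asz1, Fabp1, Arhgap35 and Dppa3 lie upstream of the start.

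Promoters of genes expressed in single tissues lay on the labelled TKO side as well. In the tissue-specific list 6 of 26 were called, against 2.02% of all promoters, and 17 lay below 0 at adjusted p under 0.05, against 31.6% of all, with none above and a median of -0.13. Of the 26, 20 were CpG-poor. Csn3, which encodes the milk protein kappa-casein, averaged -0.78 ± 0.24. Fabp2, an intestinal fatty acid binding protein gene, averaged -0.76 ± 0.23, and Gcg, which encodes glucagon, -0.61 ± 0.19. Fabp1, the liver form, measured -0.56, -0.50, -0.52, -0.52, -0.53, -0.43 and -0.48 on replicates 1 to 7, a mean of -0.51 ± 0.04 (SD, n = 7; limma adjusted p = 3.1e-06). The arrays differed little for the promoter while its probes ran from -1.54 to 0.22. The lowest, 581 bp upstream, was not above background on all arrays. Without dim spots the mean was -0.43, and with normexp -0.16, so that the call was lost in both. Afp, which encodes the fetal serum protein alpha-fetoprotein, averaged -0.57 ± 0.22. With normexp Csn3, Fabp2, Gcg and Afp averaged -0.15, -0.22, -0.20 and -0.13, and none remained a call. Without dim spots Fabp2 (-0.71) and Gcg (-0.53) remained calls, Afp (-0.46) did not and Csn3 could not be tested.

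Olfactory, vomeronasal, lectin and chemokine families had more promoters below 0 than above, while defensins and interferon alpha genes did not. Over all promoters 31.6% lay below, 25.4% above and 2.02% were called towards labelled TKO. Of 286 olfactory receptor promoters 182 lay below 0 at adjusted p under 0.05, 6 lay above and 12 were called, with a median of -0.16. Their median brightness was 7.93 and 245 were CpG-poor. Among 51 vomeronasal receptor promoters 27 lay below and 3 above, against 31.6% below over all promoters. Of the 51, 46 were CpG-poor, a class in which 975 of 1838 lay below. The pseudogene promoter Vmn2r-ps54 averaged -0.61 ± 0.23 with all 5 probes above background. Of 32 C-type lectin and natural killer receptor promoters 22 lay below and 1 above, with a median of -0.23 and Klrb1a at -0.65 ± 0.22. Among 24 chemokine and interleukin promoters 16 lay below and 2 above, and the T cell cytokine genes Il17f and Il17a averaged -0.72 ± 0.37 and -0.62 ± 0.18. Without dim spots Il17f averaged -0.44, and with normexp -0.10 (limma adjusted p = 0.058), so that its call was lost in both. Il17a averaged -0.59 without dim spots and, with normexp, -0.40, which is no call. Of 23 defensin promoters, 18 of them on chromosome 8, 11 lay above and 6 below with a median of 0.091, and of 10 interferon alpha promoters 2 lay above and 2 below with a median of 0.055. Members of these families are similar in sequence, so probes can bind DNA of several copies.

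The remaining lists are to be read against 25.4% above and 31.6% below over all promoters. Of 14 interferon response promoters 7 lay below 0 at adjusted p under 0.05 and 1 above, with a median of -0.097. Of 33 cytochrome P450 promoters 13 lay below and 5 above, with a median of -0.066. The Polycomb, p53 target, ribosomal protein and zinc finger lists lay near or above 0. Of 20 Polycomb developmental regulators, genes silenced by Polycomb in ES cells, 10 lay above 0 at adjusted p under 0.05 and 1 below, with a median of 0.073. For 13 p53 target promoters the counts were 7 above and 2 below, with a median of 0.094. The 23 cytosolic ribosomal protein promoters had 10 above and 4 below, and the 80 zinc finger protein promoters 18 above and 24 below with a median of 0.00026. The zinc finger shares, 22.5% above and 30.0% below, lay near those over all promoters. No promoter of the lists in this paragraph was called, where 2.02% of all promoters were called towards labelled TKO. The promoter of Dnmt3b, the de novo methyltransferase that TKO cells lack, measured -0.20, -0.23, -0.01, 0.21, 0.05, 0.17 and 0.05, a mean of 0.0061 ± 0.17 with 3 arrays below 0. At the actin gene Actb the mean was 0.10 ± 0.04 and at the glycolytic gene Gapdh 0.057 ± 0.09.

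**Figure D3:**
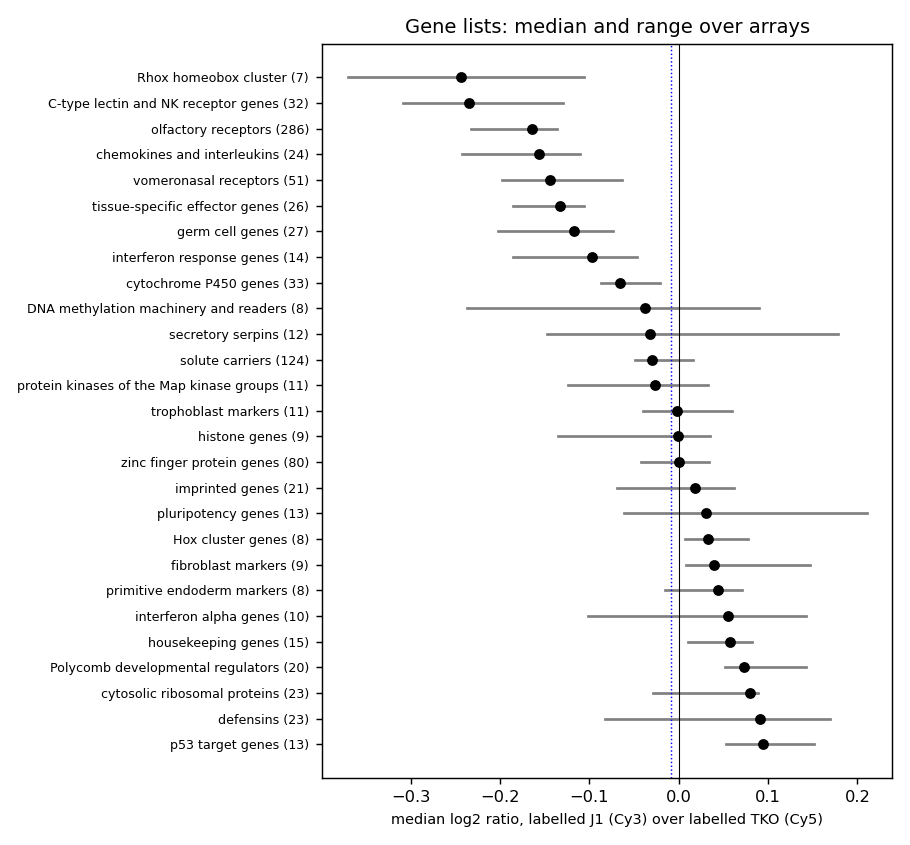
Median log2 ratio (x axis) of the promoters of each gene list with at least 7 promoters on part 1 (points, number in brackets) and the range of the medians of the 7 arrays (lines), with a dotted line at the median of all promoters, -0.0092. The Rhox, lectin, olfactory, chemokine, vomeronasal, tissue-specific, germ cell, interferon response and cytochrome P450 lists lie below 0 on all 7 arrays. The p53 target, Polycomb, housekeeping, fibroblast and Hox lists lie above 0 on all 7.

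At the 3 promoters called on the labelled J1 side every probe was well above background in both channels on all 7 arrays. Nsfl1c, a cofactor of the p97 ATPase, measured 0.48, 0.45, 0.52, 0.75, 0.55, 0.76 and 0.59 on replicates 1 to 7, a mean of 0.59 ± 0.12 (SD, n = 7; limma adjusted p = 8.2e-06). Its highest probe, 133 bp upstream, averaged 0.94. The telomere-associated poly-ADP-ribose polymerase gene Tnks averaged 0.56 ± 0.09, between 0.43 and 0.70, and the growth factor gene Fgf20 0.51 ± 0.18, between 0.21 and 0.77. Both lie on chromosome 8. With normexp their means were 0.46, 0.37 and 0.36 and none passed the size cut.

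CpG-poor promoters lay towards labelled TKO and CpG-rich promoters slightly towards labelled J1. The class came from the RefSeq window of 300 bases, with high CpG at an observed over expected ratio of at least 0.75 and a GC content of at least 55%, and low CpG at a ratio under 0.48. Over the 7 arrays the median ratio was 0.048 ± 0.0090 (SD) for 1596 high CpG promoters, 0.015 ± 0.0092 for 1350 intermediate and -0.12 ± 0.024 for 1838 low CpG promoters. The difference of high minus low was 0.16 ± 0.024 (exact two-sided sign-flip permutation test, p = 0.016, the smallest that 7 arrays allow), with each array between 0.13 and 0.20. Of the 1838 low CpG promoters 975 lay below 0 at adjusted p under 0.05 and 161 above, and of the 1596 high CpG promoters 260 and 604. These counts are to be read against 31.6% below and 25.4% above over all promoters. In bins of the ratio the median was lowest at 0.1 to 0.2, with -0.14 ± 0.033, and above 0 from 0.5 upward. Low CpG promoters were dimmer, at a median log2 brightness of 9.45 against 9.97. Within 4 brightness classes of equal size the difference was 0.13, 0.17, 0.12 and 0.12, from dimmest to brightest. With normexp it was 0.065 with median centring and 0.088 with loess, both with p = 0.016 in the exact permutation test.

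**Figure D4:**
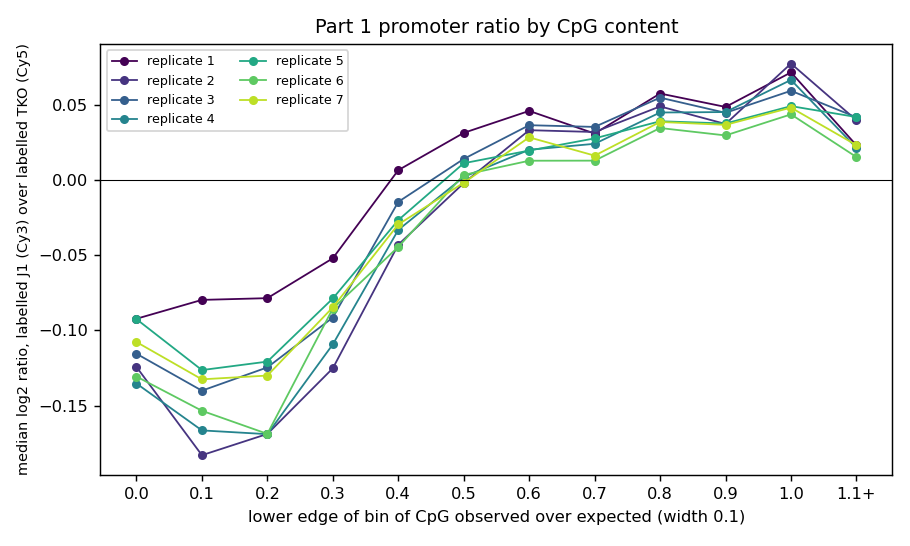
Median log2 ratio of labelled J1 over labelled TKO (y axis) of part 1 promoters in bins of CpG observed over expected (x axis), 1 line per array. All 7 arrays lie below 0 in the bins under 0.4 and above 0 from 0.6 upward.

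Of the 138 calls on the labelled TKO side 68 were low CpG promoters, 14 high and 19 intermediate, and the others had no single class. The share called was 3.70% of low and 0.877% of high CpG promoters, against 2.02% of all promoters. Among the 14, Fnbp1l averaged -0.96 ± 0.21, with 3 of 6 probes above background on all arrays. Arhgap35, a GTPase activating protein gene with all 6 probes above background, measured -0.35, -1.10, -0.64, -0.60, -0.45, -0.81 and -0.66 on replicates 1 to 7, a mean of -0.66 ± 0.24 (SD, n = 7; limma adjusted p = 5.3e-05). Replicate 2 was the lowest. Its probes 712 and 453 bp upstream averaged -1.14 and -1.11, and the probe 366 bp inside averaged 0.25. With normexp Fnbp1l averaged -0.26 and Arhgap35 -0.46, and none of the 14 remained a call. Ratios over all probes also differed by position. The median over probes 1000 to 2000 bp upstream of their gene's start was -0.12 ± 0.027 (SD over 7 arrays), and within 500 bp downstream 0.052 ± 0.018, where 94.3% against 78.5% of probes were above background.

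Chromosome 8 had a larger shift than the other chromosomes. The median ratio of its 248 promoters exceeded that of all others by 0.15 ± 0.048 (SD, n = 7), with replicates 1 to 7 at 0.083, 0.11, 0.13, 0.22, 0.19, 0.19 and 0.16 (exact two-sided sign-flip permutation test, p = 0.016, adjusted p = 0.039 over 10 chromosomes). Smaller shifts with all 7 arrays on 1 side, and the same p and adjusted p in this exact test, were found on chromosomes 1 (-0.017), 5 (0.016) and 6 (-0.040). The other 6 chromosomes did not pass, at shifts from -0.012 on chromosome X to 0.037 on the 12 promoters of chromosome Y. Of the chromosome 8 promoters 56.0% lay above 0 at adjusted p under 0.05 and 12.5% below. The adjusted p was 0.052 with normexp, at shifts of 0.097 with median centring and 0.10 with loess, and 0.063 to 0.078 with any 1 array left out. This adjusted p also depends on how many chromosomes reach the smallest exact p that the number of arrays allows. On the 7 part 2 arrays, which carry 458 other promoters of chromosome 8, the shift was 0.095 ± 0.015. It was larger on part 1 by 0.058 (exact two-sided permutation test of 7 against 7 arrays, p = 0.012, adjusted p = 0.037 over 3 comparisons). Since no input DNA was hybridised, a difference in methylation and a difference in copy number between the lines cannot be told apart.

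**Figure D5:**
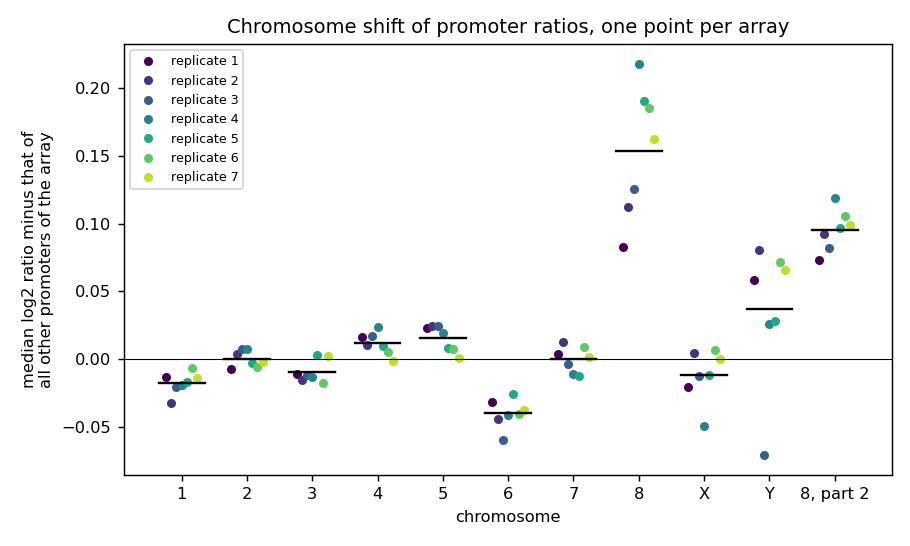
Median log2 ratio of the promoters of each chromosome minus that of all other promoters (y axis), 1 point per array and a bar at the mean, with part 2 for chromosome 8 at the right. Chromosome 8 lies above 0 on all 7 arrays of both parts, at a mean of 0.15 on part 1 and 0.095 on part 2.

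No difference between the parts passed the test in the other measures compared. The CpG class difference was 0.16 ± 0.024 on part 1 and 0.19 ± 0.046 on part 2 (exact two-sided permutation test, p = 0.26, adjusted p = 0.39). The SD of promoter ratios within an array was 0.21 ± 0.035 and 0.22 ± 0.029 (exact permutation test, p = 0.70, adjusted p = 0.70). On part 2, 142 of 6814 promoters (2.08%) were called towards labelled TKO and 6 (0.0881%) towards labelled J1.

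RNA of the same genes was measured on 3 expression arrays, deposited as 1 sample, and is given as log2 of TKO over J1 with the likely dye order. Expression replicate 3 had 8386 uneven spots, which were left out, against 11 and 57 on replicates 1 and 2. On it 39.6% of probes were above background in J1, against 59.1% and 58.9%. The dye order was read from the study text and from Dnmt3b RNA itself. Dnmt3b RNA, at -2.72, -2.44 and -2.34 on the 3 arrays in that order, is therefore no separate check of it. RNA of most genes with a called promoter was not above background in J1. Only 17 of the 118 on the expression array (14.4%) were above background in J1 on all 3 arrays, against 52.5% of 6050 genes with a part 1 promoter. For 22 genes with a called promoter RNA could be tested, and TKO was higher at 6 and lower at 2 at adjusted p under 0.05. Among all 3271 tested genes with a part 1 promoter 19.6% were higher and 14.8% lower. The adjustment in limma ran over 13403 array entries, of which 8566 were named genes. Afp rose by 3.86 ± 0.25 (SD, n = 2), Rhox2a by 3.06 ± 0.57 (n = 3) and Asz1 by 2.07 ± 0.068 (n = 2). Dppa3 rose by 0.73 ± 0.21 and Cavin2, a caveola protein gene, by 0.73 ± 0.24 (both n = 3). Fabp1 was not above background in J1 on any array and at least 1.95-fold higher in TKO (n = 2). The protein repair gene Pcmtd1 fell by 0.77 (n = 2) and the zinc finger gene Zbtb5 fell by 0.71 (n = 3). The RNA of Nsfl1c differed by 0.087 ± 0.11 with an adjusted p of 0.46 in limma.

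Chromosome 8 genes had more RNA calls higher than lower in TKO. Of all 3271 tested genes with a part 1 promoter, 19.6% were higher and 14.8% lower in TKO. Among the 114 of them on chromosome 8, 54 were higher and 5 lower in TKO, and the median was 0.27. With median centring in place of loess the counts on chromosome 8 were 9 and 2 of 114, where 111 and 187 of all 3271 genes were higher and lower. The medians of the other chromosomes ran from -0.15 for the 5 genes of chromosome Y to 0.037 on chromosome 4. In the promoter ratios the same chromosome lay on the labelled J1 side.

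Markers of ES cells checked the labelled cell type. Of 8 ES cell markers on the expression array 7 were above background in J1 on all 3 arrays, and of 7 tested 3 were lower and 1 higher in TKO. Of the markers of other cells, 12 of 27 trophoblast, 13 of 24 primitive endoderm and 13 of 25 fibroblast markers were above background in J1. Among all genes with a part 1 promoter on the expression array the share was 52.5%, so these counts do not show that such cells were present. In TKO 12 of 13 tested trophoblast, 14 of 16 primitive endoderm and 9 of 14 fibroblast markers were higher, against 16.4% of all 13403 entries tested. The part of these markers in the RNA differences was not tested.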

How the data were processed

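MeDIP DNA of J1 and TKO ES cells was hybridised to 2-colour Agilent promoter arrays, and 7 part 1 arrays were analysed. Scanner files came from Agilent Feature Extraction 8.5, as the submitters' processing notes name it. Per the file headers, the authors' intensity values had background subtracted and dyes normalised. The authors' deposited value table holds log10 ratios that match the scanner's log ratio. The sources used here name no build for the probes, so their positions are not printed.

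Ratios were log2 of Cy3 over Cy5 of the deposited processed intensity, centred on each array's median, without control and uneven spots and without loess. Probes of a gene name (at least 3) were averaged and tested against 0 with limma 3.58.1 (R 4.3.3). Expression arrays used normexp (offset 50) and loess, the brightest probe of a gene, and the sign of replicate 2 turned. Array names were updated through RefSeq (GRCm38.p6): 6404 promoters had 1 symbol, 363 several and 52 none. In simulated data with 200 changed promoters of the 6819, 87.0% of those shifted by 0.55 were recovered and 98.5% of those shifted by 0.6 (log2), with 0 false calls. The simulated noise was normal around 0 and independent between promoters, without any offset at dim spots. It therefore cannot show how many of the real calls come from dim signal. P-values measure the spread between arrays, whose number limits the precision.

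Named promoters were the 12 lowest calls below 0 on all 7 arrays with at least 3 probes above background, the 4 lowest regardless of background, all calls above 0 (at most 8), up to 3 calls from each gene list, the Dnmt and control genes on part 1, and the called promoters with the 4 highest and 3 lowest RNA changes. A few promoters picked by this rule are not reported here. Arhgap35 was chosen after its values were seen. The members and gene lists were chosen with earlier results of these data known. Alternatives covered background correction, normalisation, centring, probe filters, promoter definition, the deposited log10 table and leaving out each array.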

Additional observations from a re-analysis of the deposited data

Results flagged for a closer look

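Of 75 sets of 7 array values checked, 7 had an array far from the others by Dixon's test, and chance flags about 1 in 20. Replicate 2 stood apart at Grin2b, a glutamate receptor subunit gene, with -1.20 against -0.73 to -0.56 on the other arrays. It also stood apart in the median of the DNA methylation machinery list, with -0.24 against -0.020 to 0.089, and in that of the chemokine and interleukin list, with -0.24 against -0.17 to -0.11. Replicate 5 was lowest at the vomeronasal receptor gene Vmn1r66, with -1.10 against -0.57 to -0.29. Replicate 1 was highest in the median of the Polycomb list, with 0.14 against 0.052 to 0.080, and of the primitive endoderm list, with 0.070 against -0.015 to 0.016. Replicate 6 was highest for the secretory serpins, with 0.18 against -0.15 to -0.018.

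The chromosome 8 shift differed between the parts by 0.058, larger on part 1, by the permutation test given with it above.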

How the results depend on the processing

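With normexp, calls on the labelled TKO side fell from 138 to 5 with median centring and to 5 with loess, and those on the labelled J1 side from 3 to 0 with either. On part 2 normexp with median centring left 2 and 1. With dim spots dropped, 65 promoters were called on the labelled TKO side. At any size the counts were 2154 and 1732, and at a mean at least 1 from 0 they were 2 and 0. Without centring 5 were called on the labelled J1 side, and with the median over probes 6. Centring on the mode moved the share below 0 among promoters at adjusted p under 0.05 from 55.4% to 67.6%. Without centring the share was 48.1%, with 1934 below and 2084 above. With normexp and median centring it was 48.7%, with 1420 below and 1496 above, so which side held more promoters depended on the processing. Leaving out each array gave 113 to 173 calls on the labelled TKO side and 2 to 4 on the labelled J1 side.

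The CpG class difference kept its direction and p under 0.05 in every alternative run. It moved from 0.16 to 0.065 with normexp and median centring and to 0.088 with normexp and loess. The chromosome 8 shift kept its direction. It missed the threshold with normexp and median centring (0.097) and with loess (0.10). Leaving out each array gave 0.14 to 0.17, with adjusted p from 0.063 to 0.078, where 6 arrays cannot give an exact p under 0.031. With the replicate number as a block, the chromosome 8 shift still differed between parts by 0.058 (exact sign-flip permutation p = 0.016, adjusted p = 0.047) and no other call changed. The sources used here do not say whether same-numbered arrays share a culture.

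Among named promoters Olfr589 and Vmn1r66 turned to 0.010 and 0.0079 with normexp and median centring. Dnmt3b, near 0, turned to -0.023 with centring on the mode and, leaving out arrays, ran from -0.027 to 0.046. In the RNA arrays, median centring gave 111 higher and 187 lower of the genes with part 1 promoters, against 640 and 483, and 9 and 2 on chromosome 8. With processed signals 8 chromosome 8 genes were lower, against 5. Leaving out an expression array gave 384 to 575 higher and 263 to 425 lower. The slide as a random block was not run, since only 1 pair of arrays shares a slide. Averaging that pair, chosen after the data were seen like the brightness classes, gave 120 and 2 calls.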
